A study of Nicotiana tabacum with 12 samples.

Results

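Of 25273 gene models measured in tobacco (Nicotiana tabacum) roots, 208 formed a set raised in the group coded CR alone. Messenger RNA was sequenced in 12 libraries, 3 in each of 4 groups whose titles give the codes CR, TCR, TWTR and WTR. The labels do not spell the codes out, and all groups share one protocol text, on an NtLHT1 mutant line kept for 15 days in hydroponic LN (low nitrogen) solution, so the codes are used here without a genotype or nitrogen level. Strain, age, clone number and pooling of plants are not stated in the labels used here, nor is whether replicates came from separate plants, so the p-values rest on the spread between libraries, which may be technical.

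LHT1 proteins carry amino acids into plant cells across the plasma membrane, and roots of many plants use them to take up amino acids as organic nitrogen beside nitrate and ammonium. Roots short of nitrogen commonly change the levels of transporters, assimilation enzymes and growth regulators. The identifiers name a scaffold of the Nitab4.5 models and a number on it, and are not paired with gene names, and 0 of the 25273 were found in the RefSeq gene table used here. No member could therefore be given a name, a role or a sequence, NtLHT1 itself was not analysed here, and the tissue label was not checked against marker genes. The same holds for the lists of transporters, assimilation enzymes and shoot genes set up for this work, for which 0 identifiers could be matched.

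The members were chosen by their own values. A model entered the set when its mean over the 12 libraries was at least 1 and under 1000 FPKM (fragments scaled by transcript length and by library total), when the lowest of its 3 CR values exceeded the highest of its 9 other values, and when its level in CR was at least 1 above that of every other group. Level here is L, the group mean of log2(FPKM + 5), so a difference of 1 in L means that FPKM + 5 was doubled. All values of CR against the other groups are therefore descriptions of how the set was chosen and carry no test. Of 19828 models in the allowed range of mean, 3102 (15.6%) had every CR library above all 9 others, and 208 (1.05%) also met the difference in L. In bulk roots, more cells of a type in CR and more RNA per cell cannot be told apart.

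The FPKM of one library added up to 1099061 to 1154691, and absolute depth is unknown. Relative depth, read from the steps between low values, was 1.83 for CR replicate 2 with CR replicate 1 set to 1, and between 0.914 and 1.14 in the other 10 libraries. The same rule turned to each of the other groups gave 5 models raised in TCR alone, 17 in TWTR alone and 8 in WTR alone. Turned to falls, it gave 73 models lowered in CR alone, 0 in TCR alone, 8 in TWTR alone and 40 in WTR alone. No test was made of these counts.

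The set took up several times more of the CR libraries than of the others. Its 208 models held 3.13%, 2.75% and 2.88% of the summed FPKM in the CR libraries. They held 0.789%, 0.817% and 0.794% in TCR, 0.810%, 0.786% and 0.722% in TWTR, and 0.720%, 0.680% and 0.728% in WTR. The CR libraries lay far above the rest, which the rule brought about, while the other 3 groups lay close together. The median member stood at 67.8, 65.6 and 69.3 FPKM in the CR libraries. It stood at 15.4, 18.1 and 14.4 FPKM in TCR, at 17.0, 16.5 and 14.4 FPKM in TWTR, and at 15.9, 15.3 and 16.6 FPKM in WTR.

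**Figure D1:**
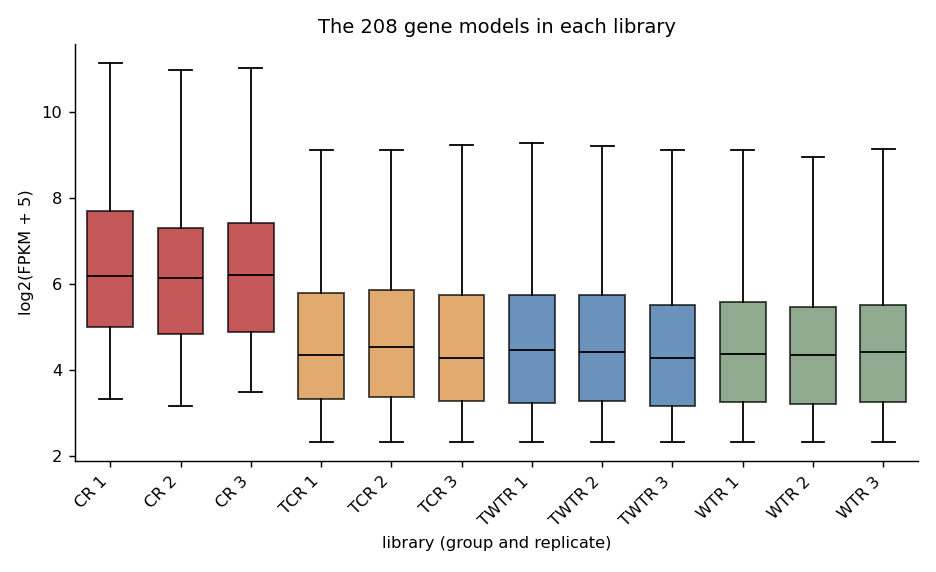
Distribution of log2(FPKM + 5) over the 208 gene models in each of the 12 libraries; boxes span the quartiles, the line is the median and whiskers reach the lowest and highest model. The CR boxes sit above the others, as the choice of members requires, and the boxes of TCR, TWTR and WTR overlap almost fully.

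Members ranged widely in level and in how far CR stood out. The mean in CR ran from 6.12 to 2129 FPKM with a median of 68.1; 9 members were under 10 FPKM, 123 from 10 to under 100, and 71 from 100 to under 1000. The 5 members at 1000 FPKM or more in CR are named here after their values were seen. They were Nitab4.5_0000407g0130 (2129 FPKM), Nitab4.5_0001486g0010 (1734), Nitab4.5_0002522g0070 (1724), Nitab4.5_0000031g0370 (1340) and Nitab4.5_0001477g0080 (1191). The difference in L between CR and the highest other group had a median of 1.28 and quartiles of 1.09 and 1.59. It was under 1.5 in 144 members, from 1.5 to under 2 in 37, from 2 to under 3 in 21, and 3 or more in 6. As a ratio of mean FPKM, CR was at least 2.05 times the highest other group in the 207 members that had a value above 0 elsewhere, with a median of 3.03 times; in 58 it was at least 4 times and in 26 at least 8 times. Most of the set lay close to the threshold, and a small part stood far above it.

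At the threshold itself the choice is one of degree. The models just inside were Nitab4.5_0002982g0030, with a difference in L of 1.0015, and Nitab4.5_0004391g0010, with 1.0033. Nitab4.5_0002982g0030 had 106, 96.1 and 98.1 FPKM in CR against a highest value elsewhere of 52.0 FPKM, in TCR replicate 2. Just outside were Nitab4.5_0002018g0050, with 0.9938, and Nitab4.5_0000007g0320, with 0.9921. Nitab4.5_0000007g0320 had 803, 577 and 682 FPKM in CR and at most 346 FPKM in the other 9 libraries, so it was raised by much the same amount as the models inside. Another 12 models had a difference in L between 1.01 and 1.65 but at least 1 CR value that did not clear the others.

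**Figure D2:**
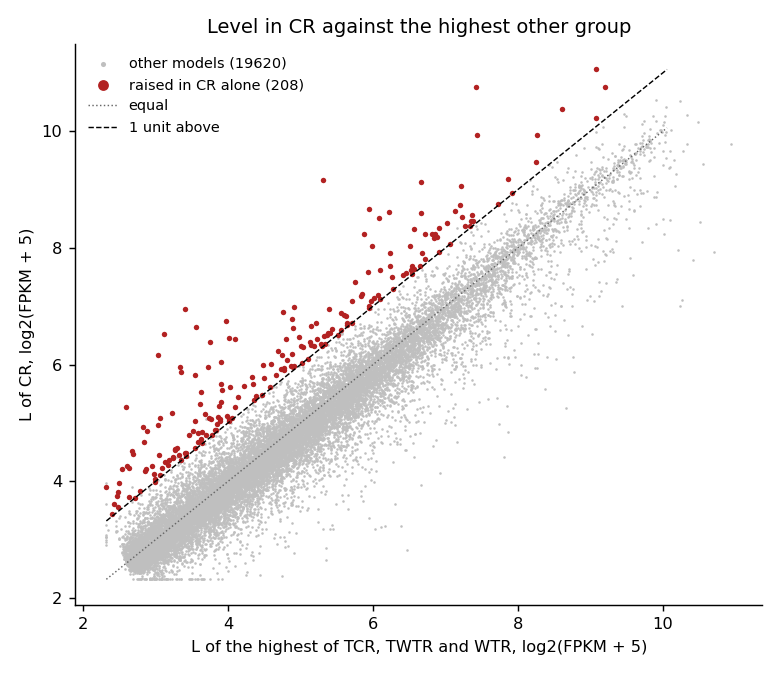
Level L in CR (vertical axis) against the highest L of TCR, TWTR and WTR (horizontal axis), both in log2(FPKM + 5), for the 208 members (red) and the 19620 other models with a mean of 1 to 1000 FPKM (grey); the dotted line marks equal levels and the dashed line 1 unit above. Red points crowd along the dashed line and thin out upward, and the 12 grey points above it are models whose CR values overlapped another group.

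The member that stood out most was Nitab4.5_0001495g0130. It had 630, 567 and 509 FPKM in CR, 29.9, 36.2 and 38.1 FPKM in TCR, 38.9, 29.0 and 24.7 FPKM in TWTR, and 25.0, 24.6 and 27.7 FPKM in WTR. CR was 16.4 times the next group, the 9 other libraries fell within a narrow band, and no contrast among their groups passed (limma adjusted p 0.0741 to 0.471). The second was Nitab4.5_0000900g0150, with 113, 93.3 and 158 FPKM in CR and 6.61, 5.52 and 4.91 FPKM in TCR. It had 6.75, 3.34 and 3.39 FPKM in TWTR and 0.55, 1.58 and 0 FPKM in WTR. This model was graded outside CR as well: every TCR and TWTR library lay above every WTR library, and TWTR was higher than WTR (log2 difference 1.74, SE 0.342, limma adjusted p 0.00344).

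The most abundant members in CR showed other backgrounds. Nitab4.5_0000407g0130 had 2269, 2020 and 2096 FPKM in CR, 534.9, 539.8 and 525.7 FPKM in TCR, 507, 529 and 409 FPKM in TWTR, and 316, 321 and 329 FPKM in WTR. Its WTR libraries were the lowest and did not overlap those of TCR or TWTR, and both TCR and TWTR were higher than WTR by the test (TCR minus WTR log2 difference 0.73, SE 0.084, limma adjusted p 0.000161; TWTR minus WTR 0.57, SE 0.084, limma adjusted p 0.000552). Nitab4.5_0001486g0010 had 2015, 1617 and 1571 FPKM in CR, 155.9, 153.2 and 169.9 FPKM in TCR, 135.9, 133.5 and 124.8 FPKM in TWTR, and 163.4, 167.4 and 170.6 FPKM in WTR. Here TWTR was the lowest group, below TCR (TCR minus TWTR log2 difference 0.28, SE 0.0552, limma adjusted p 0.0106) and below WTR (TWTR minus WTR -0.35, SE 0.0552, limma adjusted p 0.00094). One member, Nitab4.5_0000073g0550, singled out after its values were seen, was listed at 9.42, 10.2 and 10.3 FPKM in CR and at 0 in all 9 other libraries. No fold is given for it, because a listed 0 may also be a failed estimate.

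**Figure D3:**
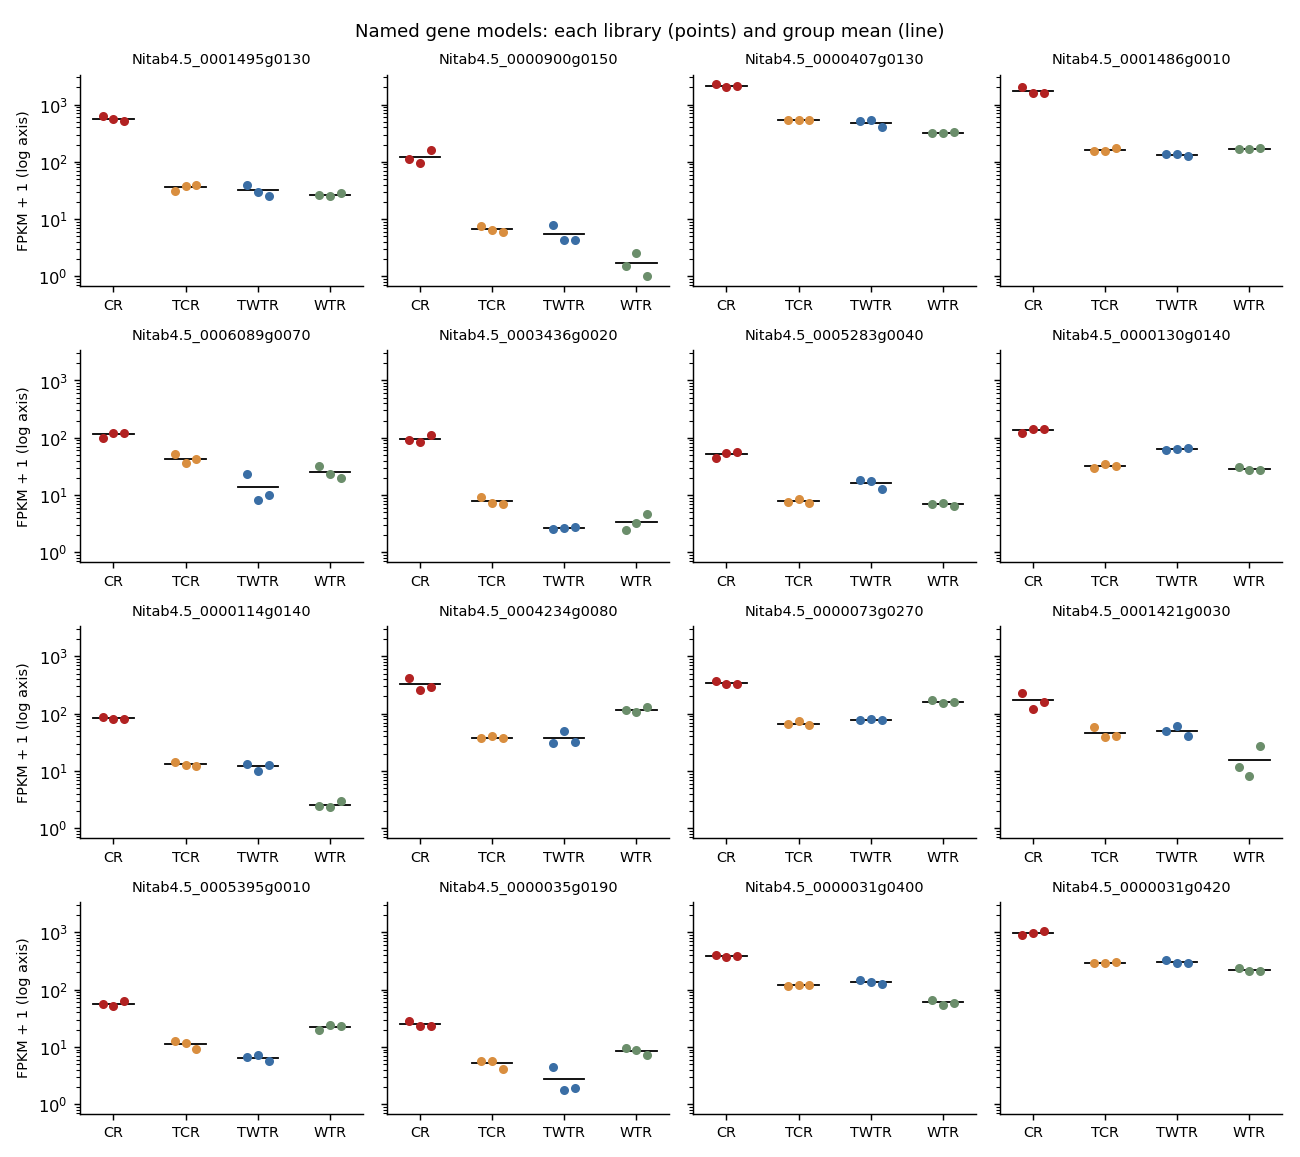
FPKM + 1 on a log axis in each library (points) and the group mean (line) for the 16 named gene models, with groups in the order CR, TCR, TWTR and WTR. CR is highest in every panel by the choice of members; the order of the other 3 groups differs from panel to panel, with WTR lowest for Nitab4.5_0000114g0140, TWTR lowest for Nitab4.5_0005395g0010 and WTR second to CR for Nitab4.5_0000073g0270.

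The members were then compared among TCR, TWTR and WTR. The rule set no condition on these contrasts, but the highest of the 9 values and the largest L of these groups formed the bar that CR had to clear, so the contrasts are not independent of the choice. Counts and medians over the members are therefore a description, and the p-values are those of the fit over the whole table. The fit used the 9 libraries of those groups alone, on log2(FPKM + 1), over every model that averaged 1 FPKM or more in them. This covered 19808 models and 196 of the 208 members. The 12 members left out by that filter averaged 6.12 to 34.0 FPKM in CR and were at or below 4.58 FPKM in all other libraries. The 3 contrasts share libraries, and their counts are given side by side. A call is an adjusted p under 0.05 (Benjamini-Hochberg over all 19808 models).

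Between TCR and TWTR, 39 members were higher in TCR (19.9% of those tested) and 20 lower (10.2%), where the shares over all models tested were 6.64% higher and 6.26% lower. The median log2 difference was 0.03 over the members and -0.02 over all models. The quartiles were -0.19 and 0.37 over the members and -0.16 and 0.15 over all models, so the upper side of the members reached further. The members were more spread, with a median absolute difference of 0.27 against 0.16 over all models. Without TCR replicate 1 the count of higher members was 22 and without TCR replicate 2 it was 24, both more than 1.5 times smaller; over all models the higher share was then 3.88% and 3.60%.

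The members named for this contrast lay at both ends. Nitab4.5_0006089g0070 had 50.2, 35.9 and 41.0 FPKM in TCR and 22.6, 7.26 and 9.19 FPKM in TWTR (log2 difference 1.77, SE 0.382, limma adjusted p 0.0227). It had 99.9, 121 and 121 FPKM in CR and 31.7, 22.3 and 19.0 FPKM in WTR, with WTR below TCR and overlapping TWTR. The difference of TCR from WTR did not pass (log2 difference 0.79, SE 0.382, limma adjusted p 0.174). Its rise in TCR over TWTR was the largest among the members. That call ended without any one TCR library or without TWTR replicate 2 or 3 (limma adjusted p 0.0554 to 0.0786), with the log2 difference at 1.47 to 1.88 in those fits. Nitab4.5_0003436g0020 had 8.16, 6.41 and 5.90 FPKM in TCR and 1.51, 1.65 and 1.74 FPKM in TWTR (log2 difference 1.56, SE 0.221, limma adjusted p 0.00201), beside 91.3, 84.8 and 109.9 FPKM in CR. Its TCR libraries also lay above those of WTR, at 1.47, 2.22 and 3.65 FPKM (TCR minus WTR log2 difference 1.22, limma adjusted p 0.00271). Both members named as lower in TCR were high in TWTR, with TCR close to WTR. Nitab4.5_0005283g0040 had 6.56, 7.64 and 6.18 FPKM in TCR, 17.5, 16.6 and 11.6 FPKM in TWTR, and 6.09, 6.33 and 5.50 FPKM in WTR (TCR minus TWTR log2 difference -1.04, SE 0.151, limma adjusted p 0.00222). Nitab4.5_0000130g0140 had 28.4, 33.6 and 30.6 FPKM in TCR, 61.0, 63.6 and 64.9 FPKM in TWTR, and 30.0, 26.3 and 26.6 FPKM in WTR (TCR minus TWTR log2 difference -1.01, SE 0.0765, limma adjusted p 7.16e-05). In CR, Nitab4.5_0005283g0040 had 42.9, 53.6 and 55.5 FPKM and Nitab4.5_0000130g0140 had 121, 143 and 142 FPKM. In both, TWTR was also above WTR (log2 differences 1.20 and 1.17, limma adjusted p 0.000193 and 2.44e-06).

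Between TCR and WTR, 51 members were higher in TCR (26.0%) and 26 lower (13.3%), beside 15.6% higher and 11% lower over all models tested. The median log2 difference was 0.19 over the members and 0.02 over all models. Nitab4.5_0000114g0140 had 13.5, 11.6 and 11.4 FPKM in TCR and 1.42, 1.37 and 1.98 FPKM in WTR (log2 difference 2.35, SE 0.150, limma adjusted p 3.28e-06). Its TWTR libraries, at 12.5, 8.81 and 11.7 FPKM, were above WTR as well (log2 difference 2.20, SE 0.150, limma adjusted p 3.13e-06), and CR stood at 85.6, 80.6 and 80.2 FPKM, so it had 3 separate levels. Among called members, Nitab4.5_0000900g0150, described above, was the next (log2 difference 2.07, SE 0.342, limma adjusted p 0.00171).

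Other members had WTR second to CR, with TCR and TWTR below it. Nitab4.5_0004234g0080 had 36.1, 39.9 and 36.1 FPKM in TCR, 29.5, 49.6 and 31.3 FPKM in TWTR, and 112.7, 104.7 and 129.2 FPKM in WTR (TCR minus WTR log2 difference -1.60, SE 0.175, limma adjusted p 0.000173). Nitab4.5_0000073g0270 had 64.7, 72.5 and 61.9 FPKM in TCR, 75.8, 80.4 and 77.3 FPKM in TWTR, and 172.6, 150.2 and 160.7 FPKM in WTR (TCR minus WTR log2 difference -1.27, SE 0.0717, limma adjusted p 1.49e-06). Neither model overlapped between WTR and either TCR or TWTR. In CR, Nitab4.5_0004234g0080 stood at 422, 259 and 295 FPKM and Nitab4.5_0000073g0270 at 373, 334 and 331 FPKM. Both were lower in TWTR than in WTR too (log2 differences -1.66 and -1.04, limma adjusted p 9.54e-05 and 3.35e-06).

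Between TWTR and WTR, 57 members were higher in TWTR (29.1%) and 41 lower (20.9%), beside 20.1% higher and 14.6% lower over all models tested. The median log2 difference was 0.07 over the members and 0.04 over all models, and the median absolute difference 0.44 and 0.23. In 40 members the difference was at least 1 on the log2 scale, and 36 of these passed the test, which makes 18.4% of the members tested; over all models tested the share was 6.23%. The largest rise was again that of Nitab4.5_0000114g0140. Among called members, Nitab4.5_0001421g0030 followed, with 49.8, 59.6 and 39.8 FPKM in TWTR and 10.8, 7.13 and 26.2 FPKM in WTR (log2 difference 1.86, SE 0.421, limma adjusted p 0.011). It had 229.8, 122 and 160.4 FPKM in CR and 58.3, 38.4 and 39.5 FPKM in TCR, and TCR was higher than WTR as well (log2 difference 1.73, limma adjusted p 0.0199). Nitab4.5_0005395g0010 fell to 5.60, 6.13 and 4.73 FPKM in TWTR, against 19.1, 23.0 and 22.5 FPKM in WTR (log2 difference -1.80, SE 0.137, limma adjusted p 6.69e-06). It had 55.0, 50.8 and 61.2 FPKM in CR. TCR lay between TWTR and WTR at 11.6, 10.9 and 8.30 FPKM and differed from both (TCR minus TWTR 0.79, limma adjusted p 0.00562; TCR minus WTR -1.01, limma adjusted p 0.000468). Nitab4.5_0000035g0190 fell to 3.52, 0.75 and 0.88 FPKM in TWTR, against 8.59, 7.82 and 6.30 FPKM in WTR (log2 difference -1.79, SE 0.334, limma adjusted p 0.00261). It had 26.8, 22.0 and 22.4 FPKM in CR and 4.72, 4.69 and 3.08 FPKM in TCR. The differences of TCR from those groups did not pass (limma adjusted p 0.0712 against TWTR and 0.140 against WTR).

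**Figure D4:**
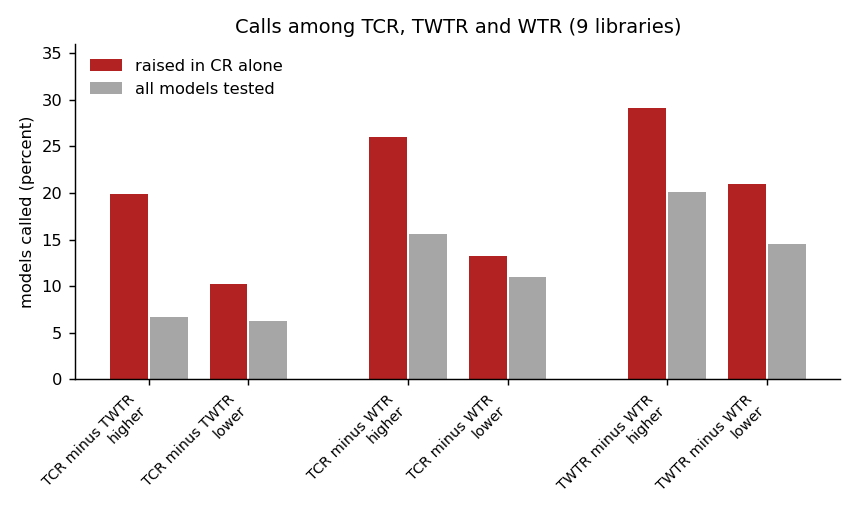
Percent of models called higher or lower in each contrast among TCR, TWTR and WTR, for the 196 members tested (red) and all 19808 models tested (grey). The red bar is above the grey one in all 6 pairs, by the widest margin for TCR minus TWTR higher (19.9% and 6.64%) and the narrowest for TCR minus WTR lower (13.3% and 11%).

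The calls sorted the members into several profiles. In all, 131 of the 196 members tested (66.8%) were called in at least 1 of the 3 contrasts, and 42.3% of all models tested. WTR was below both TCR and TWTR in 35 members (17.9%; 11.9% of all models), with median group means of 188.5 FPKM in CR, 58.3 in TCR, 60.0 in TWTR and 33.4 in WTR. TWTR was below both TCR and WTR in 21 (10.7%; 4.09% of all models), with median means of 67.9, 24.0, 18.7 and 24.7 FPKM in the same order of groups. WTR was above both TCR and TWTR in 15 (7.65%; 7.99% of all models), TWTR was above both others in 14 (7.14%; 4.68%), and TCR was above both others in 13 (6.63%; 2.06%). TCR was below both others in 5 (2.55%, beside 1.085% of all models). A member can enter 2 of these profiles. The 65 members called in no contrast had lower levels, with median means of 36.6 FPKM in CR, 8.95 in TCR, 8.38 in TWTR and 8.24 in WTR. Over all members, TCR was the highest of the 3 groups in 77 (37.0%; 27.6% of the 19828 models in the range of mean), TWTR in 66 (31.7%; 38.4%) and WTR in 64 (30.8%; 33.9%).

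The largest falls among members rested on listed zeros. Nitab4.5_0000302g0080, singled out after its values were seen, had 224, 210 and 274 FPKM in CR, 0, 69.4 and 0 FPKM in TCR, 0, 42.4 and 0 FPKM in TWTR, and 99.0, 44.9 and 76.3 FPKM in WTR. In TCR and TWTR only replicate 2 carried a value. Neither TCR minus WTR (log2 difference -4.10, limma adjusted p 0.214) nor TWTR minus WTR (-4.33, limma adjusted p 0.170) passed. In 14 members at least 1 of the 9 libraries outside CR was listed at 0.

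The CR libraries were not alike over the set. CR replicate 1 was the highest of the CR libraries in 117 members (56.3%) and in 36.7% of the other 19620 models in the range of mean. CR replicate 2 was the lowest in 120 members (57.7%) and in 28.9% of the other models. Both held at once in 83 members (39.9%; 17.7% of the other models). The median difference between CR replicate 1 and CR replicate 2 was 0.16 in log2(FPKM + 5) over the members and -0.01 over the other models, small beside the distance to the other groups. CR replicate 2 was also the library with 1.83 times the depth of CR replicate 1, as estimated from the steps between low values. Whether depth had a part in the lower values of CR replicate 2 was not tested. By the same rule without CR replicate 2, 247 models qualified, 203 of them members. Libraries of the other groups leaned over the set too: TCR replicate 2 was the highest TCR library in 44.7% of members (32.7% of the other models), TWTR replicate 3 the lowest TWTR library in 48.8% (27.9%) and WTR replicate 2 the lowest WTR library in 48.3% (34.3%). The median coefficient of variation between replicates was 11.3% in CR, 11.5% in TCR, 16.2% in TWTR and 14.1% in WTR over the members with a value, beside 9.42%, 7.65%, 10.3% and 8.43% over all models in the range of mean. The rule bounded the CR values of members from below and their other values from above, so these spreads are not independent of the choice.

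**Figure D5:**
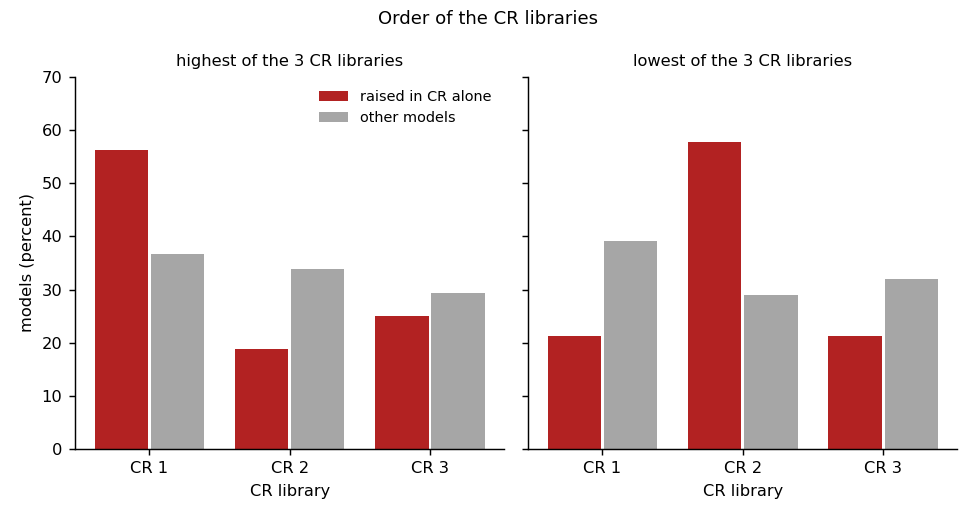
Percent of models in which each CR library had the highest (left) or the lowest (right) FPKM of the CR libraries, for the 208 members (red) and the 19620 other models with a mean of 1 to 1000 FPKM (grey). CR replicate 1 is the highest in 56.3% of members and CR replicate 2 the lowest in 57.7%.

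Some members carried neighbouring identifiers. The set was spread over 186 of the 3170 scaffolds listed; 20 scaffolds held at least 2 members, together 42 of them. In 10 members (4.81%) the next listed identifier on the scaffold, on either side, was a member too, which held for 1.30% of the other models in the range of mean. The 10 make up 5 pairs, of which the first below was taken by the naming rule and the others were added after their values were seen. Table order on a scaffold is not a measured distance, and whether neighbours are copies of one gene that share reads was not tested.

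Nitab4.5_0000031g0400 had 403, 375 and 392 FPKM in CR, 117, 119 and 121 FPKM in TCR, 148, 134 and 125 FPKM in TWTR, and 65.6, 53.4 and 57.9 FPKM in WTR. Its neighbour Nitab4.5_0000031g0420 had 892, 981 and 1041 FPKM in CR, 286, 292 and 298 FPKM in TCR, 332, 285 and 291 FPKM in TWTR, and 237, 209 and 210 FPKM in WTR. Both were higher in TCR than in WTR (log2 differences 1.0045 and 0.42, limma adjusted p 1.63e-05 and 0.00177) and higher in TWTR than in WTR (1.19 and 0.47, limma adjusted p 3.39e-06 and 0.000661). Another member of the scaffold, Nitab4.5_0000031g0370, stood at 1466, 1211 and 1342 FPKM in CR and between 228 and 412 FPKM elsewhere.

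The other pairs differed in how far their partners moved alike. Nitab4.5_0000218g0060 averaged 25.4 ± 2.77 FPKM in CR, 1.97 ± 0.313 in TCR, 1.70 ± 0.555 in TWTR and 2.12 ± 0.425 in WTR, and Nitab4.5_0000218g0070 averaged 86.9 ± 7.84, 3.68 ± 0.849, 3.64 ± 1.61 and 2.71 ± 0.753 FPKM in the same groups (SD, n = 3 each). For both, no contrast outside CR passed. Nitab4.5_0000907g0090 averaged 57.7 ± 9.20 FPKM in CR, 7.34 ± 1.47 in TCR, 8.34 ± 2.61 in TWTR and 2.81 ± 0.493 in WTR (SD, n = 3 each), and was higher than WTR in TCR (log2 difference 1.13, limma adjusted p 0.00468) and in TWTR (1.26, limma adjusted p 0.00177). Its neighbour Nitab4.5_0000907g0080 averaged 14.2 ± 1.51 FPKM in CR, 1.05 ± 0.196 in TCR, 1.11 ± 0.747 in TWTR and 0.247 ± 0.166 in WTR (SD, n = 3 each), and was among those too low to test. Nitab4.5_0000013g0380 had 328 to 499.8 FPKM in CR and 42.9 to 72.5 FPKM elsewhere, and was higher in TWTR than in WTR (log2 difference 0.43, limma adjusted p 0.0119). Nitab4.5_0000013g0390 had 272 to 509 FPKM in CR and 16.8 to 129 FPKM elsewhere, with the 3 groups overlapping and no contrast passing (limma adjusted p 0.753 to 0.932). Nitab4.5_0000194g0160 averaged 192 ± 30.7 FPKM in CR, 55.5 ± 5.84 in TCR, 87.6 ± 5.64 in TWTR and 67.4 ± 20.6 in WTR, and Nitab4.5_0000194g0170 averaged 82.3 ± 13.7, 12.5 ± 6.49, 22.9 ± 3.82 and 7.84 ± 3.58 FPKM in the same groups (SD, n = 3 each). Nitab4.5_0000194g0160 was lower in TCR than in TWTR (log2 difference -0.65, limma adjusted p 0.0492), and Nitab4.5_0000194g0170 was higher in TWTR than in WTR (log2 difference 1.496, limma adjusted p 0.0152).

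Models next to a member that were not members themselves leaned only slightly toward CR. Of 255 such models in the range of mean, 39.6% had their highest L in CR, beside 33.2% of all 19620 models outside the set. Their median difference in L between CR and the highest other group was -0.06, and -0.12 over all models outside the set.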

How the data were processed

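RNA was isolated with TRIzol and polyA RNA was read on a DNBSEQ-T7, per the labels' protocols, which also name fastp for read cleaning, STAR for alignment and StringTie2 and Cuffcompare for transcripts. The genome build, annotation release, quantifier and versions were not given in the sources used here. Values are the authors' deposited FPKM, per the file headers, for 25273 gene models with 1 transcript each. FPKM divides by length and library total, so very abundant transcripts shift other values, and near-identical copies in this allotetraploid may share reads.

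The members, lists and tests were chosen with earlier results of these data known. Members were found with Python 3.11.15. Tests used limma 3.58.1 in R 4.3.3 (group means, trend and robust options) on log2(FPKM + 1), which understates changes of low models; the fit used the 9 libraries outside CR, whose highest values also entered the choice of members. The procedure was tested on simulated data with independent libraries and changes in TCR only, in far fewer models than were called in the measured data. In TCR minus TWTR it recovered 35 of 67 models changed 1.5 times, 57 of 67 changed 2 times and 62 of 66 changed 4 times. Of its 161 calls there, 7 were false. Named were the 2 members with the largest difference in L, the 2 highest in CR, per contrast the 2 called members with the largest rise and the 2 with the largest fall (no overlap, and 5 FPKM or more on average in whichever group was higher), and the ends of the longest run of neighbouring identifiers, ties going to the higher CR mean. Alternatives covered pseudocounts, filters, scalings, the fit of all 12 libraries, the replicate block and each library left out.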

Additional observations from a re-analysis of the deposited data

How the results depend on the processing

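The size of the set followed its thresholds: 408 models qualified with a pseudocount of 1 and 540 with 0.1, 982 with a difference in L of at least 0.5 and 64 with at least 1.5. It was 211 with no limit on the mean, 182 after rescaling to TPM, 202 with median-of-ratios scaling and 179 with quantile normalization, and 191 to 247 on leaving out 1 library. Counts of members called stayed within 1.5 times under all alternatives other than leaving out a library. On leaving out 1 library they ranged from 22 to 43 higher and 15 to 21 lower in TCR minus TWTR, 43 to 57 and 22 to 29 in TCR minus WTR, and 48 to 57 and 33 to 42 in TWTR minus WTR. The median log2 difference of members in TCR minus WTR was 0.13 with a pseudocount of 5; on leaving out 1 library the medians ran from 0.15 to 0.21 there, from -0.01 to 0.08 in TCR minus TWTR and from 0.03 to 0.11 in TWTR minus WTR. With the replicate block, 40 members were higher (20.4%, beside 5.97% of all models) and 20 lower (10.2%, beside 5.39%) in TCR minus TWTR. In TCR minus WTR, 55 were higher (28.1%, beside 14.7%) and 28 lower (14.3%, beside 10.2%). In TWTR minus WTR, 57 were higher (29.1%, beside 19.3%) and 41 lower (20.9%, beside 14.1%). With the block, no call by which a member was named for a contrast changed, and other calls of named members were not compared. Among the 9 libraries outside CR, deviations of same-numbered libraries correlated at -0.029 to 0.070 over 9 pairs, with a median of 0.017. Those of differently numbered libraries correlated at -0.082 to 0.052 over 18 pairs, with a median of -0.008. The correlations were weak, but 7 of the 9 libraries outside CR correlated best with their own number. Compared with libraries of the other groups, each CR library correlated best with one of another number. These were TWTR replicate 2 for CR replicate 1 (0.216), TWTR replicate 3 for CR replicate 2 (0.059) and WTR replicate 1 for CR replicate 3 (0.109). Whether the numbers pair the libraries was not tested. The main fit did not pair them, and the fit with the replicate block did. Alternatives chosen after seeing the data gave 20 members with a member within 2 listed identifiers (9.62%; 2.52% of the other models) and 31 within 5 (14.9%; 5.09%). A stricter one, identifier numbers differing by 10, gave 8 members (3.85%, beside 0.98% of the other models). It left out the pair Nitab4.5_0000031g0400 and Nitab4.5_0000031g0420. Absolute depth is unknown, so no counting error could be given for low values.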
